A study of Mus musculus with 12 samples.

Results

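The Gimap genes encode GTPases of immunity-associated proteins, a family of GTP-binding proteins found mainly in lymphocytes. The 8 mouse genes Gimap1, Gimap3, Gimap4, Gimap5, Gimap6, Gimap7, Gimap8 and Gimap9 were taken by symbol from a table of 55291 gene symbols, with no use of their values, and were followed across the 4 groups of the study. Gimap proteins sit on membranes of lysosomes, mitochondria, the endoplasmic reticulum and lipid droplets, and several are known for their effect on the survival of mature T cells. Loss of Gimap5 or Gimap1 leaves mice and rats short of T cells, Gimap3 and Gimap5 have been linked to proteins of the BCL2 family, which set the threshold for mitochondrial cell death, and Gimap6 binds a member of the ATG8 family, the proteins that mark autophagosomes. The data hold RNA levels alone and no measure of survival.

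The cells were activated CD8+ T cells, which are cytotoxic lymphocytes, obtained from lymph node and spleen of WT mice and of Dock8 KO mice, and their RNA was sequenced in bulk. Dock8 is an exchange factor for Cdc42, a small GTPase that governs actin filaments. Cells of each genotype were activated and expanded for 3 days and then kept for 24 h in media or in a gel of bovine collagen at 2 mg/mL, a matrix that T cells migrate through. The resulting groups, WT media, WT gel, KO media and KO gel, had 3 libraries each, with 3 mice per group per the labels. The labels do not describe the Dock8 allele or the ages of the mice and do not say whether gel and media libraries with the same number came from the same mice, so p-values measure the spread between these libraries. For the Gimap genes, 5 comparisons were made: gel against media in WT and in KO cells, KO against WT in media and in gel, and the interaction, which asks whether the effect of the gel depended on genotype. They share libraries: each group enters 2 of the comparisons between groups, and all 4 enter the interaction.

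The libraries held 28483064 to 61390702 counts. Levels are given as CPM, counts per 1000000 after scaling. Dock8 was lower in the KO libraries, at 120 ± 9.83 CPM in KO media and 162 ± 5.04 in KO gel against 408 ± 41.1 in WT media and 413 ± 35.6 in WT gel (SD, n = 3), with no overlap between genotypes. It was higher in KO gel than in KO media, at a log2 fold change of 0.44 (SE 0.089, edgeR adjusted p = 0.00425). In that comparison edgeR called 20.8% of all genes. For WT gel against media, Dock8 had a log2 fold change of 0.02 (SE 0.089). The CD8 T cell markers Cd3e, Cd8a and Cd8b1 summed to 1353 to 1745 CPM in the 12 libraries. Several markers of other cells were at or near 0: Ms4a1 of B cells, Csf1r of macrophages, Cdh5 and Emcn of endothelium and Col3a1 of stroma reached at most 0.163 CPM in any library, and S100a9 of neutrophils was at 0 in all 12. Other genes of the same marker lists were higher, with Pecam1 at 109 to 146 CPM, Zbtb7b at 18.9 to 32.7, Itgax at 12.4 to 45.2, Cd79b at 10.4 to 14.7, Cd4 at 1.96 to 7.16, Egfl7 at 1.67 to 2.66 and Foxp3 at 0.0978 to 4.36. The 5 macrophage and dendritic cell markers summed to 12.6 to 32.4 CPM in WT and 31.3 to 45.6 in KO libraries. The 3 neutrophil markers, of which Mpo was the highest, summed to 1.08 to 1.22 CPM in KO gel, 0.110 to 0.293 in KO media and at most 0.0504 in WT libraries. WT gel library 2 and KO media library 3 held more counts on loci resembling ribosomal RNA, at 19.0% and 12.5% against 3.88 to 9.56% in the others. The KO gel libraries showed 28362 to 30104 genes at a common depth, against 24336 to 25142 elsewhere, and their erythroid and platelet markers summed to 9.53 to 19.1 CPM against 2.81 to 5.74. The part of these features in the results below was not tested, except that results were recomputed without WT gel library 2 and KO media library 3. In bulk RNA, fewer cells of a type and less RNA per cell cannot be told apart.

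All 8 genes lie on chromosome 6 between 48647234 and 48770851 (GRCm38, GENCODE M21), a span of 123.6 kb, in the order Gimap8, Gimap9, Gimap4, Gimap6, Gimap7, Gimap1, Gimap5 and Gimap3. Gimap6 and Gimap3 are on the minus strand and the others on the plus strand. Gimap3 and Gimap5 are the closest copies. The longest identical stretch between their longest coding transcripts was 140 bases, all of it coding in both genes, against 10 to 17 bases for the other pairs of members. It is shown because reads that fall inside it cannot be assigned to one gene: in Gimap3 it lies at chr6:48765681-48765820 on the minus strand, and in Gimap5 at chr6:48752684-48752823 on the plus strand.
Gimap3 and Gimap5: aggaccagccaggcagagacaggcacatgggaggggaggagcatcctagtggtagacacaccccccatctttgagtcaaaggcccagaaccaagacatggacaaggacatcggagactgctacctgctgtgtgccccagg

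Over whole transcripts, 190 of the 2528 distinct stretches of 50 bases in Gimap3 (7.52%) also occurred in Gimap5, where they made up 4.53%. The counting rule for reads that map to several places is not given in the sources used here, so the levels of Gimap3 and Gimap5 are uncertain to the extent that such reads were dropped or split. Another overlap concerns Gimap1, whose span, introns included, overlaps by 2391 bases that of Gimap1os, an RNA transcribed from the opposite strand. Of the 3116 distinct stretches of 50 bases in Gimap1 transcripts, 1011 (32.45%) also occurred in Gimap1os, on the opposite strand. The strand setting of the counting is not given either, so reads in that shared part cannot be assigned to either gene. Gm28053, a gene model that joins parts of Gimap7, Gimap1 and Gimap5, held 3.57 to 4.54 CPM, far below those genes.

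The family was strongly transcribed in every library. Summed over the 8 genes, it held 2667 to 2951 CPM, or 0.267 to 0.295% of the scaled total, and the lowest single count was 2052, for Gimap5 in WT gel library 2. Levels of different genes are compared per kilobase of exon, in CPM per kb. Gimap4, reported to speed the death of T cells once apoptosis has begun, stood highest at 498 ± 18.6 CPM per kb (SD, n = 12 libraries). Gimap3 followed at 236 ± 10.1 and Gimap6 at 181 ± 10.6. Gimap9 stood at 82.6 ± 5.29, Gimap7 at 60.4 ± 8.11 and Gimap8, the member with repeated GTPase domains, at 55.3 ± 1.78. Gimap1 at 31.6 ± 1.91 and Gimap5 at 19.8 ± 0.719 stood lowest. The members whose loss is best known to deplete T cells were the 2 lowest of the family per length.

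Most neighbours in this order were separated in every library. The ranges over 12 libraries overlapped only between Gimap9 and Gimap7, where Gimap9 was the higher gene in 12 of 12 libraries, and between Gimap7 and Gimap8, where Gimap7 was higher in 8 of 12. With the longest transcript in place of all exons as the length, Gimap7 moved above Gimap9, to 111 against 98.0 CPM per kb, and the other 6 genes kept their places. Gimap8 and Gimap1 then stood close, at 64.7 and 60.1 CPM per kb, against 55.3 and 31.6 with all exons. The overlap of ranges was judged with all exons alone. Gimap4 made up 41.0 to 44.2% of the family's level per length and Gimap3 19.6 to 21.1%. The share of Gimap7 ran more widely, from 4.04 to 6.45%.

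**Figure D1:**
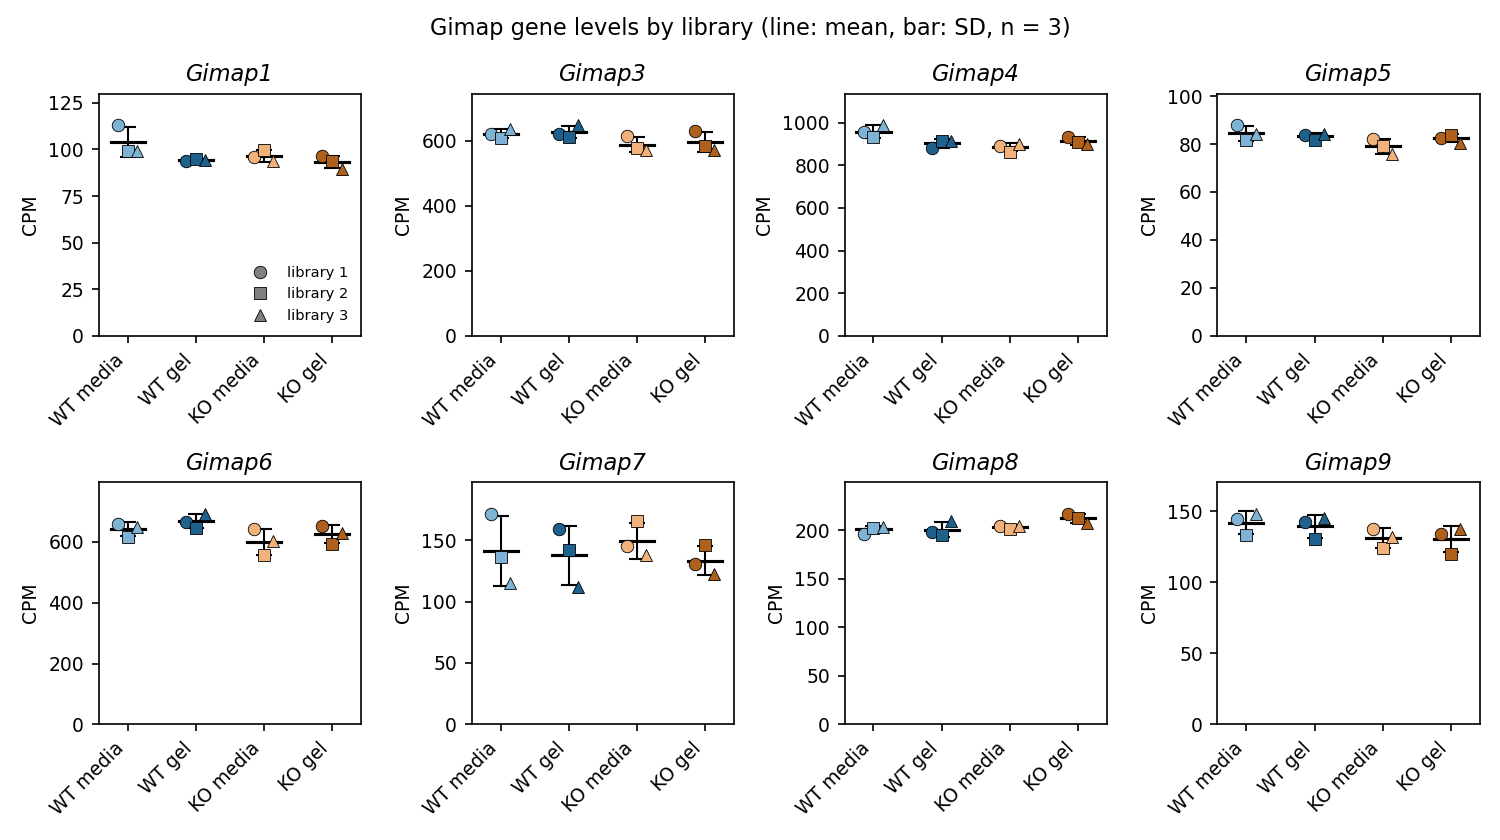
Level of each Gimap gene in CPM (vertical axes, from 0) in the 12 libraries; points are libraries with the library number as the shape, horizontal lines are group means and bars the SD of 3 libraries. Group means of each gene lie close together, and Gimap7 is the gene whose libraries of a group lie farthest apart, from 115 to 172 CPM in WT media.

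Across genotype and culture the genes changed little. No member was called in any of the 5 comparisons by edgeR's quasi-likelihood test with no block, where a call is a Benjamini-Hochberg adjusted p under 0.05 over the 19010 genes tested. All 8 members had passed the filter on low counts. Of the 40 tests, 1 had an unadjusted p under 0.05, and the lowest adjusted p was 0.363, for Gimap8 in KO gel against WT gel. The largest absolute log2 fold change between groups was 0.17, for Gimap7 in KO gel against KO media. DESeq2's Wald test and limma-voom also called 0 members in each comparison. DESeq2 called 0.247% of all genes in WT gel against media, 22.3% in KO gel against media, 0.468% in KO against WT in media, 16.5% in KO against WT in gel and 6.05% for the interaction. Limma-voom called 0.0368%, 20.5%, 0.195%, 14.1% and 3.10% in the same order.

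The fits bounded the members' changes closely. For the members other than Gimap7, standard errors of the log2 fold change between groups were 0.056 to 0.074, and the 95% intervals of the fold lay between 0.824 and 1.16. With Gimap7, the intervals lay between 0.718 and 1.31. A change of 1.5-fold in either direction was therefore outside the interval of each member in all 4 comparisons between groups.

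**Figure D2:**
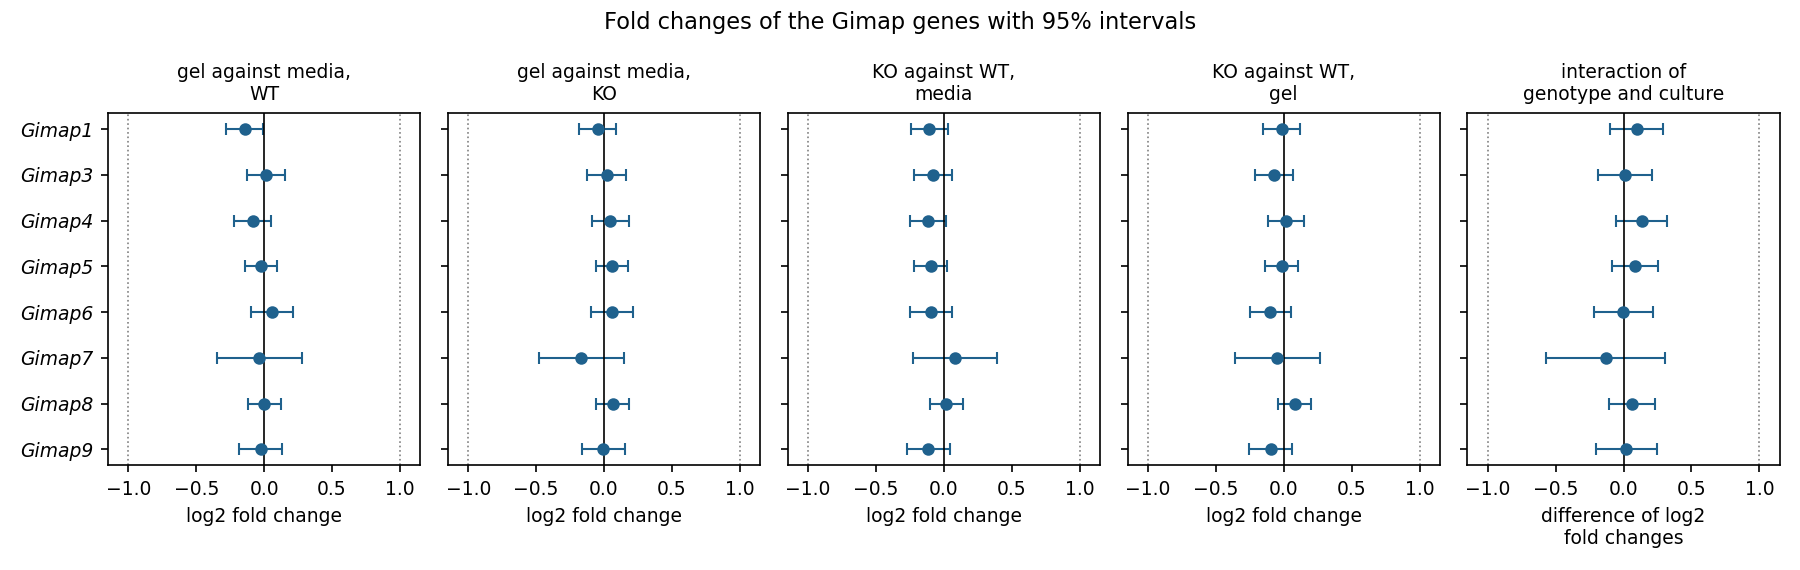
Log2 fold change of each Gimap gene (horizontal axes) in the 5 comparisons, with 95% intervals from the edgeR fit; dotted lines mark a 2-fold difference. All points lie within 0.17 of 0, and the intervals of Gimap7 are the widest.

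Gel against media in KO cells is the comparison with the most changes in the series. edgeR called 20.8% of all genes, and 23.2% of the 9919 genes whose log2 CPM averaged 3 or more, the range that holds every member, against 0 of 8 members. The unadjusted p was under 0.05 for 36.7% of genes and for 0 members. Gimap4 measured 891, 862 and 898 CPM in KO media and 935, 907 and 898 CPM in KO gel. The groups overlapped narrowly, and the log2 fold change was 0.05 (SE 0.062, adjusted p = 0.602, edgeR). Gimap8 measured 204, 202 and 205 CPM in KO media and 217, 213 and 208 CPM in KO gel. It was the 1 member of 8 whose libraries did not overlap, against 47.4% of all genes, and its log2 fold change of 0.06 (SE 0.057) had an edgeR adjusted p of 0.440.

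Gimap5, whose product resides on lysosomes, measured 82.1, 79.4 and 75.7 CPM in KO media and 82.7, 83.9 and 80.6 CPM in KO gel. The ranges overlapped, with a log2 fold change of 0.06 (SE 0.056). Gimap7, whose protein hydrolyses GTP when it pairs with another Gimap domain, measured 145, 166 and 138 CPM in KO media and 131, 146 and 123 CPM in KO gel. Its ranges overlapped and its log2 fold change of -0.17 had an SE of 0.14 (edgeR adjusted p = 0.419). With the library number as a block within genotype, Gimap7 was called lower (SE 0.049, edgeR adjusted p = 0.0113), and gel minus media was negative for each of the 3 numbers. Whether the numbers pair the KO libraries is not known from the labels, and KO media library 1 correlated best with KO gel library 3, not with its own number. The fold changes of Gimap1, Gimap3, Gimap6 and Gimap9 ran from -0.05 to 0.06. The median log2 fold change of the 8 members was 0.03, against -0.01 for all genes.

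In WT cells, where the gel changed few genes, 0 of 8 members were called against 0.0368% of all genes. Those were 7 genes, or 171 with the library number as a block within genotype, and that block called 0 members. Gimap1, which mature T and B cells need to persist, measured 113, 99.4 and 99.4 CPM in WT media and 93.7, 94.7 and 94.2 CPM in WT gel. The gel libraries all lay below the media libraries, and the log2 fold change was -0.14 (SE 0.064) with an unadjusted p of 0.042 and an edgeR adjusted p of 0.901. This was the single unadjusted p under 0.05 among the members with no block, against 5.43% of all genes in this comparison. With the block within genotype, Gimap1 had an unadjusted p of 0.0155 and an edgeR adjusted p of 0.266. Without WT media library 1, the highest of the 12 libraries for Gimap1, the log2 fold change was -0.08 (edgeR adjusted p = 0.867), and over the 12 fits that leave out 1 library the adjusted p ran from 0.685 to 1.

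Gimap4 measured 955, 931 and 989 CPM in WT media and 880, 915 and 915 CPM in WT gel. Its libraries did not overlap either, so 2 of 8 members were separated, against 9.18% of all genes. The log2 fold change of Gimap4 was -0.09 (SE 0.062, edgeR adjusted p = 0.994). The other 6 genes overlapped, with log2 fold changes from -0.04 for Gimap7 to 0.06 for Gimap6. The members' median was -0.02, against -0.01 for all genes.

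Between the genotypes in media, 0 of 8 members were called against 0.189% of all genes, which were 36 genes, or 57 with the library number as a block; that block called 0 members. With no block, the unadjusted p was under 0.05 for 7.49% of genes and 0 members. With the library number as a block, Gimap9 had an unadjusted p of 0.0494 and an edgeR adjusted p of 0.518. Of the 8 members, 6 had negative fold changes, with log2 values from -0.12 for Gimap4 to -0.08 for Gimap3, while Gimap7 and Gimap8 stood at 0.08 and 0.02. Gimap4 was the 1 member of 8 without overlap, with all KO media libraries below all WT media libraries, against 10.7% of all genes (edgeR adjusted p = 0.712, SE 0.062). Gimap6, the ATG8-binding member, measured 660, 617 and 649 CPM in WT media and 642, 557 and 603 CPM in KO media. Those ranges overlapped, and the log2 fold change of -0.10 had an SE of 0.072. The members' median log2 fold change was -0.10, against -0.01 for all genes.

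In gel, edgeR called 14.8% of all genes between the genotypes, 17.3% of genes whose log2 CPM averaged 3 or more, and 0 of 8 members. The unadjusted p was under 0.05 for 30.1% of genes and 0 members. All 8 members overlapped between KO gel and WT gel, whereas 38.2% of all genes did not. Gimap3 measured 620, 612 and 648 CPM in WT gel and 631, 584 and 572 CPM in KO gel, a log2 fold change of -0.07 (SE 0.066). Gimap6 measured 667, 647 and 693 CPM in WT gel and 652, 593 and 631 CPM in KO gel, a log2 fold change of -0.10 (SE 0.072). For Gimap9 the values were 142, 130 and 145 CPM in WT gel and 134, 120 and 137 CPM in KO gel, a log2 fold change of -0.10 (SE 0.074). Each of these genes was a little lower on average in KO gel, by less than the spread between libraries could resolve. Gimap8 went the other way at 0.08 (SE 0.057). The members' median was -0.03, against -0.0003 for all genes.

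The interaction asked whether the difference between gel and media depended on Dock8. edgeR called 3.35% of all genes and 0 of 8 members, and the unadjusted p was under 0.05 for 19.6% of genes and 0 members. The members' differences of log2 fold changes ran from -0.13 for Gimap7 (SE 0.20) to 0.13 for Gimap4 (SE 0.088), with a median of 0.04 against 0.0 for all genes. Without Gimap7, the 95% intervals of this ratio of folds lay between 0.859 and 1.25.

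Libraries of the same group differed far less for some members than for others. The SD of log2 CPM within groups was 0.035 for Gimap4, which only 1.09% of the 9919 well expressed genes undercut, and 0.035 for Gimap8, which 1.22% undercut. Gimap5 at 0.044, Gimap3 at 0.054, Gimap1 at 0.064, Gimap6 at 0.072 and Gimap9 at 0.088 lay between. Gimap7 stood apart with an SD of 0.22, larger than that of 93.6% of those genes and 11.5 times what counting error alone gives at its depth. The highest library of Gimap7 held 1.53 times the level of the lowest, against 1.12 times for Gimap8 and 1.26 times for Gimap1, the next widest.

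The high and low libraries of Gimap7 had the same numbers in media and gel. In WT cells, libraries 1, 2 and 3 measured 172, 137 and 115 CPM in media and 159, 142 and 112 CPM in gel. In KO cells, library 2 was the highest in both cultures, at 166 CPM in media and 146 CPM in gel, and library 3 the lowest, at 138 and 123 CPM. After each group's mean was subtracted, Gimap7 followed few other members. Its correlation with Gimap1 was r = 0.67 (Spearman 0.66, n = 12 libraries; r = 0.54 without the 2 libraries farthest from the median of Gimap1), and with Gimap8 it was r = -0.65 (Spearman -0.55, r = -0.40 without the 2 farthest in Gimap7). Correlations here are descriptions of 12 libraries, which share scaling factors and, where numbers pair them, possibly mice.

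Most pairs of the other 7 genes rose and fell together within groups, but Gimap1 did so with few of them. Of their 21 pairs, 18 had a positive correlation, and the 21 had a median of 0.37 and a range from -0.18 to 0.86. The 3 negative pairs were those of Gimap1 with Gimap4 (r = -0.01), Gimap8 (r = -0.18) and Gimap9 (r = -0.07). With Gimap6, Gimap3 and Gimap5, Gimap1 had r = 0.07, 0.25 and 0.66. No share of positive pairs among other genes is given beside these. Gimap6 and Gimap9 were the closest pair (r = 0.86, Spearman 0.76, r = 0.89 without the 2 farthest libraries). Gimap3 and Gimap6 had r = 0.70 (Spearman 0.66, r = 0.49 without the 2 farthest). Of the 7 pairs that include Gimap7, 5 were negative, with a median of -0.35.

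**Figure D3:**
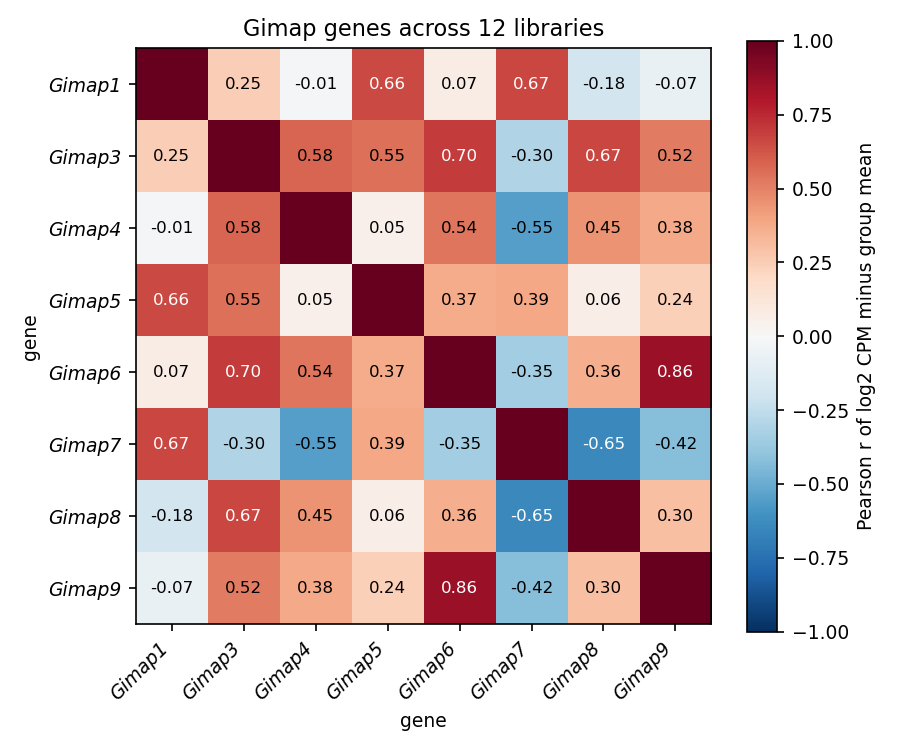
Pearson correlation of each pair of Gimap genes (rows and columns) over 12 libraries, computed on log2 CPM after subtracting each group's mean; the colour scale runs from -1 to 1. Gimap7 has negative values with 5 of the 7 others, and Gimap6 and Gimap9 form the closest pair at 0.86.

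Among the 8618 protein-coding genes whose log2 CPM averaged 3 or more, those closest within groups to Gimap7 were Mrps30, a subunit of the mitochondrial ribosome (r = 0.99, Spearman 0.97), Ldha, lactate dehydrogenase A (r = 0.99, Spearman 0.97), Ddit4, an inhibitor of mTORC1 (r = 0.99, Spearman 0.97), Pgk1 and Tpi1, enzymes of glycolysis (r = 0.99 and 0.985), and the gene model Gm10053 (r = 0.98). Without the 2 libraries farthest from the median of each gene, these values were 0.963 to 0.985. This ranking was made after the spread of Gimap7 had been seen. Ldha measured 959, 735 and 613 CPM in WT media and 920, 765 and 610 CPM in WT gel. In KO cells it measured 784, 908 and 754 CPM in media and 567, 685 and 566 CPM in gel. In each of the 4 groups, the libraries fell in the same order for Ldha and for Gimap7. The genes most opposed to Gimap7 were Aff4 (r = -0.985), Kif23, Pds5a, Tet3 and Prc1 (r = -0.98 for each) and Rfx7 (r = -0.98), of which Kif23 and Prc1 act in cytokinesis. Correlations of the other members with Ldha ran from -0.66 for Gimap8 to 0.61 for Gimap1.

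**Figure D4:**
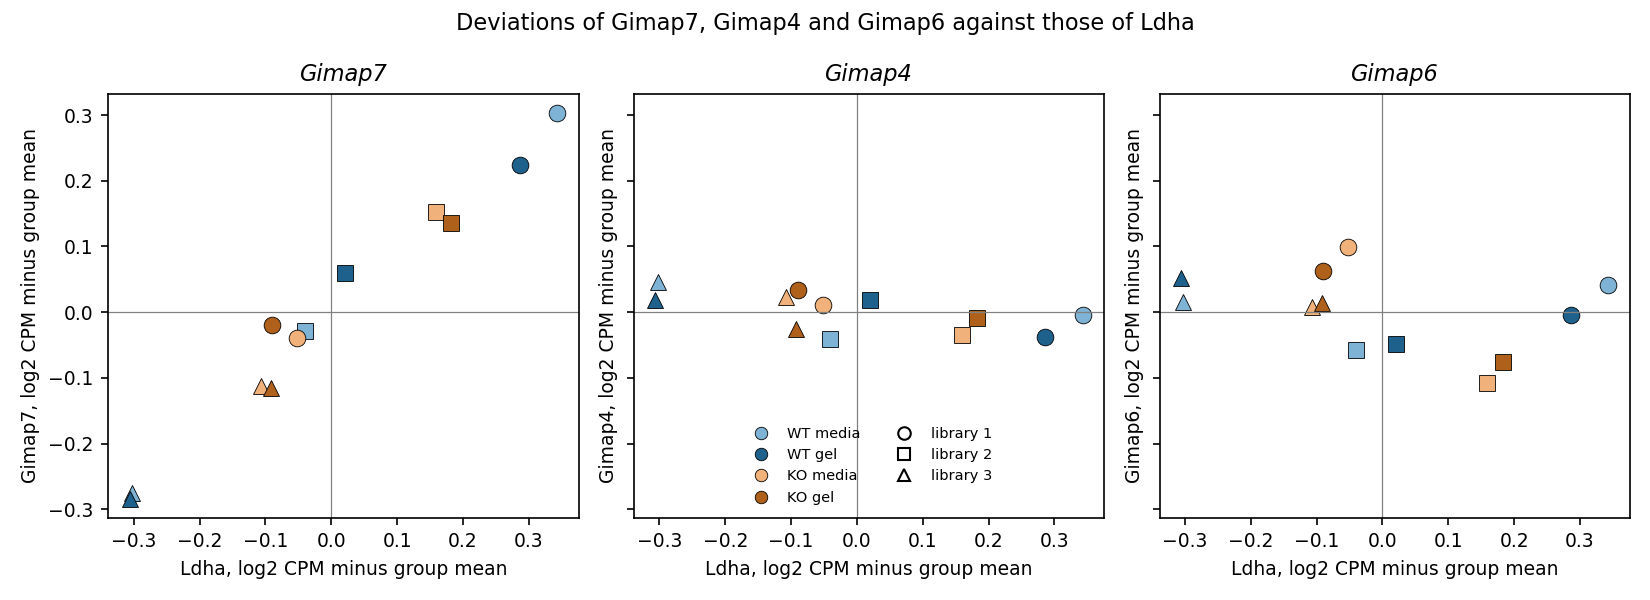
Deviation of Gimap7, Gimap4 and Gimap6 from the group mean (vertical axes, log2 CPM) against that of Ldha (horizontal axes, log2 CPM) in the 12 libraries; colours are groups and shapes library numbers. The Gimap7 points follow a rising line (r = 0.99), while Gimap4 and Gimap6 stay close to their group means with r of -0.60 and -0.36.

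The sequences before the starts of Gimap7 and Gimap4 are shown because these genes had the widest and the narrowest spread within groups. RefSeq (GRCm38.p6) gave windows from 250 bases before to 50 bases after the start for 8 of 8 members, 9 windows in all, and the 250 bases before the start are printed, both on the plus strand: Gimap7 at chr6:48718371-48718620 and Gimap4 at chr6:48684328-48684577. Capitals mark the matches found on either strand to the RUNX motif TGTGGT and to ACGTG, the core bound by hypoxia-inducible factors, which is also part of the E-box CACGTG.
Gimap7: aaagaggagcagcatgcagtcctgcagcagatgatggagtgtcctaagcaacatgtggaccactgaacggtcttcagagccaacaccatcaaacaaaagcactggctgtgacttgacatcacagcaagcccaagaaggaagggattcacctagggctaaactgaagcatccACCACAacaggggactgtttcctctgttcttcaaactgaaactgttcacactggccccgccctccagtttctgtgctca
Gimap4: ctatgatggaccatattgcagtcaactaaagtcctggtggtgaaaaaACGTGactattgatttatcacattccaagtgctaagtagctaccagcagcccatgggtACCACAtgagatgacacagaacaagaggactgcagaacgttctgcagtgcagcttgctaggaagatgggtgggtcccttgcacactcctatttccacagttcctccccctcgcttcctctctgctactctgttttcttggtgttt

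TGTGGT occurred 79 bases before the start of Gimap7 and 145 bases before that of Gimap4, and in 3 of the 9 member windows against 16.8% of all 32851 windows. ACGTG occurred 203 bases before the start of Gimap4 and in no other member window, Gimap7 included, against 19.6% of all windows. The E-box occurred in 0 of 9 windows, against 7.15% of all. The ETS motif GGAAGT was found in 4 of 9 windows (Gimap1, Gimap5, Gimap6 and Gimap9) against 23.8%, and TATAAA in 1 (Gimap6) against 13.6%. These matches are letters in a window and not measured binding.

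The mean of the 8 members, after each was standardised, was most alike to Thap3 (r = 0.93, Spearman 0.92, n = 12), Slfn2, which helps to keep T cells quiescent (r = 0.93, Spearman 0.93), and Ccs, the copper chaperone of superoxide dismutase (r = 0.93, Spearman 0.91). Hsdl1 (r = 0.92), Ltb, which encodes lymphotoxin beta (r = 0.90), and Rnf166 (r = 0.87) came next. Without the 2 libraries farthest from the median of each gene, the values were 0.83 to 0.93. Ccs, Hsdl1 and Rnf166 were also among the 6 closest after group means were subtracted. Slfn2 and Ltb themselves were not called in any comparison, with log2 fold changes in KO gel against media of 0.08 (SE 0.087) and 0.06 (SE 0.095). In KO against WT media they stood at -0.23 (SE 0.087) and -0.22 (SE 0.095). Thap3 stood there at -0.35 (SE 0.081), Ccs at -0.24, Hsdl1 at -0.11 and Rnf166 at -0.17, also without a call. The r over 12 libraries includes such differences between groups.

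Genes of the processes linked to the family included calls in KO gel against media, where 11.1% of all genes were called higher and 9.74% lower by edgeR. Of 16 BCL2 family genes tested, 2 rose and 2 fell, near the shares of all genes. Pmaip1, a BH3-only death promoter, rose from 29.7 ± 2.39 to 43.8 ± 1.53 CPM (SD, n = 3; log2 fold change 0.56, SE 0.075, adjusted p = 0.000249, edgeR). Bcl2, the founding death inhibitor, fell from 155 ± 2.95 to 116 ± 2.13 CPM (log2 fold change -0.42, SE 0.096, edgeR adjusted p = 0.00774). Bbc3, another BH3-only gene, rose by 0.40 on the log2 scale. In WT gel against media Bcl2 and Bbc3 had similar values without a call, at -0.39 (SE 0.096, edgeR adjusted p = 0.468) and 0.35 (SE 0.107, edgeR adjusted p = 0.658), and their interactions were -0.04 (SE 0.135) and 0.05 (SE 0.151). Leaving out 1 library at a time, Pmaip1 and Bcl2 were called in 12 of 12 fits, Bbc3 in 8 and Bak1, the other gene that fell, in 6. The list's calls ran from 2, without KO media library 3 or KO gel library 1 or 3, to 6 without WT media library 1. Over all genes, these 4 fits called 2978, 2163, 2500 and 5510 in the same order, against 3962 with all libraries. The list had 1 higher and 1 lower call without WT gel library 2 and KO media library 3 together, where 2200 of all genes were called. The members of the list moved in both directions, with a median of 0.02.

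Of 15 ATG8 and autophagy genes, 2 rose in KO gel against media and 1 fell, also near the shares of all genes. Ulk1, the kinase that starts autophagy, rose from 37.8 ± 3.87 to 50.3 ± 1.16 CPM, Sqstm1, an autophagy cargo receptor, from 150 ± 4.54 to 184 ± 10.3 CPM, and Atg5 fell by 0.22 on the log2 scale. The call of Atg5 held in 4 of 12 fits without 1 library and was lost with total counts or RLE as the scaling and with limma-voom. The list had 0 calls without KO media library 2, 1 without KO media library 3 or KO gel library 3, 4 without WT media library 1, and 0 without WT gel library 2 and KO media library 3 together. Of 22 genes of T cell quiescence and homeostasis, 7 rose and 1 fell, with a median of 0.24. Tob1 rose by 0.43, Btg1 by 0.49 and S1pr1, the receptor for exit from lymph nodes, by 0.30 on the log2 scale. The count of quiescence calls varied with the library left out, and DESeq2 called 11 higher and 1 lower. Leaving out a gel library of KO cells gave 1 call for library 1 and 3 calls for library 3. Leaving out a media library of KO cells gave 2 calls for library 3 and 5 for library 1. The count was 11 without WT gel library 1, WT media library 1 or WT media library 3. Without WT gel library 2 and KO media library 3 together it was 1. Tob1 was called in all 12 of these single-library fits, Btg1 in 11 and S1pr1 in 9. Of 12 T cell identity genes, 0 rose and Cd3g fell by 0.21, a call lost without KO media library 1 or 3, WT gel library 2 or any KO gel library.

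**Figure D5:**
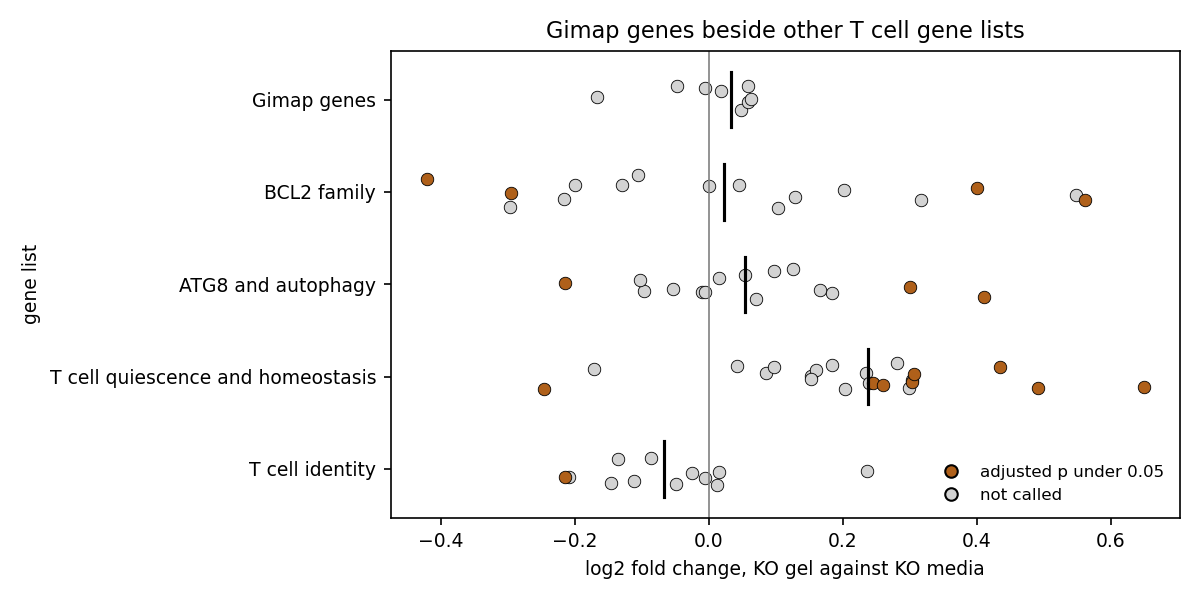
Log2 fold change in KO gel against KO media (horizontal axis) of the Gimap genes and of 4 lists of related genes (rows); points are genes, orange where edgeR's adjusted p was under 0.05, and vertical lines are medians over each list. The 8 Gimap genes lie between -0.17 and 0.06 with no call, beside lists whose medians run from -0.07 to 0.24.

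In KO against WT gel, where 7.12% of all genes were called higher and 7.71% lower, Pmaip1 (log2 fold change 0.62, SE 0.076) and Bcl2a1a (0.67, SE 0.16) rose and Bmf (-0.70, SE 0.12) fell among the 16 BCL2 family genes. These 3 calls held in 12 of 12 fits without 1 library. Sqstm1 rose by 0.29 among the autophagy genes, a call lost without WT gel library 2 or 3 or KO gel library 1 or 3. Txnip rose by 0.29, and Ccr7 and Rasgrp2 fell by 0.38 and 0.34 on the log2 scale among the quiescence genes, and Cd27 and Zap70 fell by 0.28 and 0.24 among the T cell identity genes. Of these, Ccr7 was called in 12 of 12 single-library fits, Rasgrp2 in 11, Txnip and Cd27 in 8 and Zap70 in 6. Scaled by total counts, 0 quiescence and 0 identity genes were called lower. Without WT gel library 2 and KO media library 3 together, 1 BCL2 family gene was called higher and 1 lower. In that fit 1 quiescence gene was called lower, and 0 autophagy and 0 identity genes were called. Over all genes it had 1444 calls, against 2819 with all libraries. The identity calls ran from 0, without WT gel library 3 or any KO gel library, to 5 without WT media library 1. Over all genes, calls were 2746 without WT gel library 3, 1609, 1776 and 1857 without KO gel library 1, 2 and 3, and 3893 without WT media library 1. In media, Bmf alone of these lists was called between the genotypes, at -0.71 (SE 0.12, edgeR adjusted p = 0.0248), a call lost without KO media library 1 or 2, and without WT gel library 2 and KO media library 3 together. The unadjusted p of edgeR was there under 0.05 for 8 of 22 quiescence, 3 BCL2 family, 0 autophagy and 0 identity genes. For all genes that share was 7.49%. The quiescence list had a median log2 fold change between the genotypes of -0.15 in media and 0.03 in gel. In WT gel against media, edgeR, DESeq2 and limma-voom each called 0 genes of the 4 lists. The unadjusted p of edgeR was under 0.05 for 4 of 16 BCL2 family and 1 of 15 autophagy genes. It was also under 0.05 for 1 of 22 quiescence and 0 of 12 identity genes, against 5.43% of all genes. With the library number as a block within genotype, 2 BCL2 family genes and 1 quiescence gene were called higher and 1 BCL2 family gene lower. Without WT media library 1, 1 BCL2 family gene was called lower.

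Within 500 kb of the members lie 22 other protein-coding genes, of which 14 passed the filter on low counts. In KO gel against media 1 of the 14 rose and 1 fell, against 20.8% of all genes called. Sspo, at very low levels, rose from 0.104 ± 0.0361 to 1.12 ± 0.113 CPM (log2 fold change 3.46, SE 0.36, edgeR adjusted p = 5.06e-05). Gpnmb fell from 5.67 ± 1.11 to 3.24 ± 0.576 CPM, a call lost without KO media library 2 or KO gel library 1. In KO gel against WT gel, where 14.8% of all genes were called, Sspo and Tra2a rose and Gpnmb fell, at log2 fold changes of 2.56, 0.31 and -0.97, and the call of Tra2a was lost without KO gel library 1. Gimap1os, the RNA opposite Gimap1, measured 32.0, 34.4 and 36.7 CPM in WT gel and 32.0, 27.4 and 30.6 CPM in KO gel. Its highest KO library lay just below its lowest WT library, and the log2 fold change of -0.19 (SE 0.072) had an unadjusted p of 0.0169 and an edgeR adjusted p of 0.0839.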

How the data were processed

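Total RNA of activated CD8+ T cells was sequenced in 12 libraries after depletion of ribosomal RNA, per the labels' protocols. The authors deposited 1 table of raw counts per gene symbol and library, with no normalization. The submitters' processing notes name HISAT2 and featureCounts, beside SAMtools, Picard, FastQC and MultiQC, and the genome build GRCm38 (mm10), without versions. How strand, duplicates and multiply mapped reads were treated, and with which gene annotation, is not given in the sources used here. The counts were whole numbers, 0 columns belonged to other samples, and each library was mapped to its group by its label. Gene positions and lengths came from GENCODE M21, which matched 96.4% of symbols.

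Counts were scaled by TMM factors after edgeR's filterByExpr, and 19010 genes were tested with edgeR's quasi-likelihood F test (R 4.3.3, edgeR 4.0.16, limma 3.58.1, DESeq2 1.42.0) in 1 fit of the 4 groups. The log2 levels used for spread and correlation had a prior count of 2. The standard error of a log2 fold change was its absolute size over the square root of F. CPM is the count times 1000000 over the scaled total. The Gimap genes were listed by symbol and not by their values. They, the lists of related genes and the rule for named genes were chosen with earlier results of these data known. That rule took all 8 Gimap genes, Dock8, up to 3 called genes per list by smallest p, up to 4 neighbours within 500 kb, and the 6 genes most correlated with the mean of the members. Genes named outside it (Bak1, the markers of other cells and those most like or opposed to Gimap7) were chosen after their values were seen.

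Whether library numbers pair the groups was checked by correlating deviations from group means. Same-numbered libraries correlated at 0.238 to 0.796 between WT media and WT gel and at 0.17 to 0.382 between WT media and KO media. In both comparisons each library correlated best with the library of its own number. Numbers may therefore pair these groups, as a property of the data and not of the labels. With 3 libraries per group such a match can arise by chance, so the pairing was not established. Between KO media and WT gel the values were 0.169 to 0.274, but WT gel library 1 was closest to KO media library 2, at 0.175. Same-numbered libraries correlated at -0.454 to 0.151 between WT gel and KO gel and at -0.382 to 0.246 between WT media and KO gel. The main fit had no block, so its SEs, intervals and p-values make no use of the numbers. The alternatives tried were other scalings, filters and tools, the 2 groups alone, replicate blocks, and leaving out libraries.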

Additional observations from a re-analysis of the deposited data

Results flagged for a closer look

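For 2 genes beside the members, the difference between gel and media was not the same in the genotypes by the interaction test. Pmaip1, of the BCL2 family, had a log2 fold change of 0.56 (SE 0.075) in KO and -0.01 (SE 0.076) in WT cells, a difference of 0.57 (SE 0.11, edgeR adjusted p = 0.0140). The call was lost without WT media library 2 or KO gel library 1. Sspo, a neighbour of the cluster with about 1 CPM or less, had 3.46 (SE 0.36) in KO and 0.91 (SE 0.49) in WT cells, a difference of 2.55 (SE 0.65, edgeR adjusted p = 0.0476). That call held in 3 of 12 fits without 1 library. With the library number as a block within genotype, the interaction was called higher for 2 BCL2 family, 2 autophagy and 7 quiescence genes and 1 neighbour, and lower for 1 quiescence gene, 1 identity gene and 2 neighbours. Without WT gel library 2 and KO media library 3 together it was called for 0 genes of these lists. With no block, the interaction was called for 3.35% of all genes and for 0 of 8 Gimap genes.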

How the results depend on the processing

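Over 22 alternative settings, 856 fold changes of the 8 members were recomputed and 1 was called. That call was Gimap7 in KO gel against KO media with the replicate block within genotype, so that the count of called members in that comparison was 1 and not 0. Its log2 fold change was then -0.17 (SE 0.049, edgeR adjusted p = 0.0113), against an adjusted p of 0.214 with the number as a block shared by both genotypes. In KO cells a pairing was not established: same-numbered media and gel libraries 1, 2 and 3 correlated at -0.04, 0.2 and 0.174. KO media libraries 2 and 3 correlated best with the KO gel library of their own number, and KO media library 1 with KO gel library 3, at 0.175. Without regard to a model, log2 CPM of Gimap7 in KO gel minus KO media was -0.15, -0.18 and -0.17 for numbers 1, 2 and 3. The replicate block changed no other call of a member. Genome-wide, the block within genotype called 7804 genes in KO gel against media, not 3962, and 3431 for the interaction, not 636; the block by number called 962 for the interaction. In KO gel against media the block within genotype called 5 BCL2 family genes higher and 3 lower, 3 and 1 autophagy genes, 17 and 2 quiescence genes, 1 and 3 identity genes, and 4 and 5 neighbours. The block by number called 4 and 2, 2 and 1, 10 and 1, 1 and 2, and 1 and 2 in the same order. The cause was not tested.

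The sign changed in 71 of the 856 values, 34 of them on leaving out 1 library and 12 under scaling by total counts. The largest absolute log2 fold change after such a change was 0.13 and the lowest unadjusted p was 0.201. All 856 values lay between -0.30 and 0.26. Scaling by total counts moved the median of all genes to -0.09 in WT gel against media, 0.10 in KO against WT gel and 0.12 for the interaction. With no filter beyond 1 count that median was 0.19 in KO gel against media, 0.16 in KO against WT gel and 0.21 for the interaction, from 39386 genes. Leaving out 1 library at a time, the number of called members was 0 to 0 in each comparison. Over all genes, DESeq2 called 47 in WT gel against media and 89 in KO against WT media, where edgeR called 7 and 36 and limma-voom 7 and 37. For the 8 members, the spread between libraries of a group was 1.79 (Gimap5) to 11.5 (Gimap7) times the counting error.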
